A study of Mus musculus with 8 samples.

Results

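Chemokines are small secreted proteins that direct the movement of leukocytes, and the genes described here encode the chemokines and the receptors that read them in the livers of 8 mice. The genes were taken by name from the annotation of the array: every probe set with exactly 1 gene symbol that begins with Ccl, Cxcl, Ccr, Cxcr, Cx3cl, Cx3cr, Xcl or Xcr followed by a digit. The rule found 39 genes among the 8251 named genes of the array, 24 for ligands and 15 for receptors, on 44 probe sets. Where a gene had several probe sets, the brightest on average stands for it. All 8 mice were female Ames dwarf mice (df/df), whose mutation leaves the pituitary short of the cells for growth hormone, prolactin and thyrotropin. All received 30% less food than dwarf females that ate freely, with water always available, and were killed at 24 to 26 months of age. Each frozen liver gave 1 Affymetrix U74Av2 array. They form 1 group, and neither freely fed dwarf mice nor normal mice were analysed here, so each comparison is between individual livers and says nothing of the diet or the mutation. Hepatocyte identity of the tissue was plain, since all 8 hepatocyte markers measured, albumin among them, were bright enough to test.

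Chemokines fall into 4 families named for the spacing of their first cysteines (CC, CXC, CX3C and XC), and their receptors are G protein-coupled receptors on leukocytes and some tissue cells. Many ligands are induced in inflammation: CXCL9 and CXCL10 by interferon, CCL2 and CXCL1 by TNF, interleukin 1 and bacterial products through NF-kB. Others, such as CXCL12, are made constantly and hold cells in place. In liver, chemokines from hepatocytes, Kupffer cells (the resident macrophages), stellate cells and sinusoidal endothelium draw in monocytes, neutrophils and T cells.

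The sequences just upstream of 4 ligand genes are shown so that the reader can see which short motifs named for interferon and NF-kB responses they hold. They come from RefSeq (GRCm38.p6), as the 250 bases before the annotated start, on the strand of the gene. Capitals mark matches, on either strand, to 4 patterns. They are TTCNNNGAA (that of a GAS element), GAAA followed after any 2 bases by GAAA (ISRE), GGG followed after any 3 bases by TTCC (kappa B) and TATAAA. The window of Cxcl9 is at chr5:92328080-92328329 (minus strand), that of Cxcl10 at chr5:92348890-92349139 (minus strand), that of Cxcl1 at chr5:90890995-90891244 (plus strand) and that of Cxcl12 at chr6:117168285-117168534 (plus strand). Cxcl12 was added after its values were seen, as the tested ligand with the smallest spread.
Cxcl9: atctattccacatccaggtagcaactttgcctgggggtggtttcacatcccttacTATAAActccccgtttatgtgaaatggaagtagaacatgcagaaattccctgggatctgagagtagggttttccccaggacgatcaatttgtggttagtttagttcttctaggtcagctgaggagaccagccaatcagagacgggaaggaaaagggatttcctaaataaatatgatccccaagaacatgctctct
Cxcl10: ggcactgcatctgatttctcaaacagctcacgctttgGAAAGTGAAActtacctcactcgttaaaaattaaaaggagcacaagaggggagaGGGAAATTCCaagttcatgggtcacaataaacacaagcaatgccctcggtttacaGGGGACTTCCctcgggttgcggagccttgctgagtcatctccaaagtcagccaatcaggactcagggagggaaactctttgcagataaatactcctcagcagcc
Cxcl1: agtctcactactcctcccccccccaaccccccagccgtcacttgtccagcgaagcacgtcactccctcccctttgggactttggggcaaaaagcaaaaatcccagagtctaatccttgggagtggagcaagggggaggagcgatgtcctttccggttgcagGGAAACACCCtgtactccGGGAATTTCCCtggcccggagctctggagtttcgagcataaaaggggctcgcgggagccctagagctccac
Cxcl12: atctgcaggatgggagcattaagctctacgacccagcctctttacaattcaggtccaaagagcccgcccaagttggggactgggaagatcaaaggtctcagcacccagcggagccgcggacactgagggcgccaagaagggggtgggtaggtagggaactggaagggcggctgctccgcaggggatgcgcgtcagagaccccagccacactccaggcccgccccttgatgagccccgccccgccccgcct
The Cxcl10 window held 1 ISRE pattern and 2 kappa B patterns. The Cxcl1 window held 3 kappa B patterns, of which 2 overlap as the 2 strands of 1 palindrome, and the Cxcl9 window held 1 TATAAA. The Cxcl12 window held none of the 4 patterns. Of the windows not printed, that of Ccl1 held 2 overlapping kappa B patterns, that of Ccl9 held 1 kappa B pattern and 3 TATAAA matches and that of Ccl22 none. The SD of log2 intensity over the 8 mice was 0.42 for Ccl1, 0.40 for Ccl9, 0.41 for Ccl22 and 0.25 for Cxcl12. It was 2.05 for Cxcl9, 1.78 for Cxcl10 and 0.68 for Cxcl1, and its median over the tested named genes was 0.23. Whether holding a pattern and ranging widely go together was not tested. Over all 32851 annotated upstream windows of this length, 2.98% held the ISRE pattern, 4.65% the kappa B pattern, 7.02% the GAS pattern and 12.4% TATAAA. A match describes letters only, and no match says nothing of a factor outside the window. Of the 9 ligand genes bright enough to test, 7 had an upstream sequence in the table used, and Ccl2 and Ccl5 did not.

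Intensities are in the arbitrary units of the scanner, already scaled between arrays by the authors. Values under 37.2, the 25th percentile of the table, are called near background, and genes with a mean of at least 165.2, the median of the table, were tested. By that rule 12 of the 39 genes (30.8%) were bright enough, 9 ligands and 3 receptors, against 59.0% of all named genes. A further 6 genes reached 165.2 in at least 1 mouse, and 21 reached it in none. These 21 are called not detected, which here means under the median of the table in every mouse. Most averaged near background, but Ccr1l1 was above 37.2 in all 8 mice and Ccl3, Ccl25 and Ccr4 were above it in 7. Array quality was alike except in mouse 5, whose control probe sets at the 3′ and 5′ ends of Gapdh, a measure of transcript integrity, had a ratio of 2.67, against 0.794 to 1.07 in the other 7 arrays. The same ratio for beta-actin was between 1.45 and 2.0 on all 8 arrays. Without mouse 5 the SD of log2 intensity was 2.62 for Ccl2, 2.62 for Ccl5, 2.03 for Cxcl9, 1.86 for Ccr2, 1.76 for Cxcl10 and 0.62 for Cxcl1, close to the values over 8 mice given below.

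The interferon-induced ligands that act on CXCR3, the receptor of activated T cells and NK cells, ranged widely. Cxcl9 read 290, 184, 727, 87.0, 78.2, 2094, 85.4 and 2502 in mice 1 to 8. Cxcl10 read 216, 36.0, 321, 33.1, 15.6, 624, 62.8 and 518 in the same mice. For both, mice 6 and 8 were highest, mouse 3 next and mouse 1 after it, and mice 2, 4, 5 and 7 lay below all of these. Cxcl9 ranged 32.0-fold (mean 756 ± 981, SD, n = 8) and Cxcl10 at least 16.8-fold, with its 3 values near background raised to 37.2. The receptor gene Cxcr3 averaged 152, under the brightness filter. It read 224, 118, 190, 95.7, 118, 172, 111 and 184 in mice 1 to 8, so mice 1, 3, 6 and 8 lay above the other 4 here too, within a narrower range.

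The CC ligands of monocytes and T cells ranged further. Ccl2, which draws monocytes through CCR2, read 456, 50.9, 756, 41.2, 59.5, 1455, 9.4 and 2739.8 in mice 1 to 8. Ccl5, which draws T cells and monocytes and is made by T cells, NK cells and macrophages, read 387, 30.0, 534, 17.6, 21.6, 2069, 15.1 and 1685. Mice 1, 3, 6 and 8 were again above the other 4, and no value lay between 59.5 and 387 for either gene. Ccl2 ranged at least 73.7-fold and Ccl5 at least 55.6-fold. Their SDs over the 8 livers on the log2 scale, 2.55 and 2.60, were the fifth and the fourth widest of all 6265 tested probe sets, against a median of 0.23 over the tested named genes.

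Ccr2, the receptor for CCL2 and the receptor by which inflammatory monocytes leave the blood, read 182, 82.1, 372, 84.2, 45.5, 979, 24.1 and 1022 in mice 1 to 8. Its 4 highest values lay in the same mice as those of Ccl2, and its range was at least 27.5-fold (log2 SD 1.89). Ccr1, a receptor for CCL3, CCL5, CCL6 and CCL9 on monocytes and neutrophils, was dimmer. Mouse 6 gave 265 and mouse 8 gave 216, and the other 6 mice no more than 79.3.

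**Figure D1:**
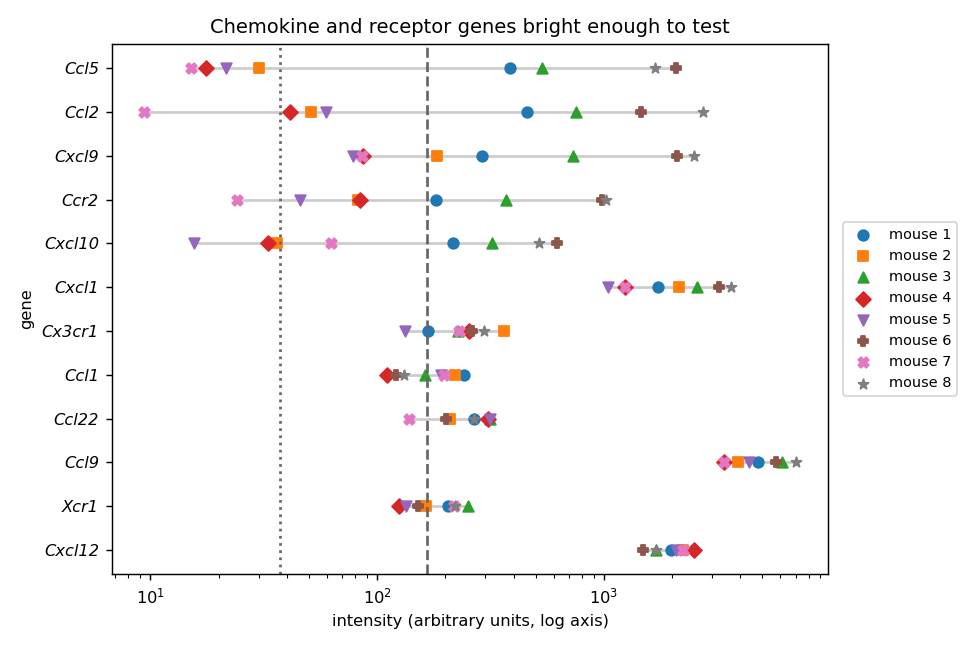
Intensity of the 12 chemokine and receptor genes bright enough to test, on a log axis, with 1 symbol per mouse and the genes ordered by the SD of log2 intensity; the dotted line is the level called near background (37.2) and the dashed line the brightness filter (165.2). Ccl5, Ccl2, Cxcl9, Ccr2 and Cxcl10 spread widest, with mice 6 and 8 at the high end, while Cxcl12 kept within 1.68-fold.

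The ligands of neutrophils act through CXCR2. Cxcl1 read 1736, 2137, 2584, 1236, 1039, 3211, 1244 and 3629 in mice 1 to 8, a 3.49-fold range (mean 2102 ± 967, log2 SD 0.68). Mice 6 and 8 were again highest, but mouse 2 lay above mouse 1, unlike in the genes above. The second probe set of Cxcl1, which shares probes with the first, put the 8 mice in the same order, with 2367 in mouse 8 at the top and 606 in mouse 5 at the bottom. Cxcl2, a neutrophil ligand induced in macrophages, reached 214 in mouse 8 and 174 in mouse 6. It read 96.7 in mouse 3 and 68.2 in mouse 1, and was near background elsewhere. Cxcl5, another neutrophil ligand, did not exceed 52.4 in any liver, and the receptor gene Cxcr2 did not exceed 62.3.

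A few ligands were measured in every liver within narrower ranges than those of Ccl2, Ccl5, Cxcl9 and Cxcl10. Cxcl12, the constitutive ligand of CXCR4 that retains blood stem cells and lymphocytes, read 1984, 2221, 1699.7, 2489, 2077, 1486, 2234 and 1690.2 in mice 1 to 8 (1.68-fold, log2 SD 0.25). On this probe set its lowest values were in mice 6 and 8, where the genes above were highest, with mouse 3 close to mouse 8. The other probe sets of Cxcl12 were also lowest in mouse 6 (759.6 and 378.7), but their highest values lay in mouse 4 (1447) and mouse 2 (536). In mouse 8 they read 1057 and 386, above mouse 5 on both (843 and 383) and above mouse 1 (909) on the former. The receptor gene Cxcr4 was not detected, with at most 60.3.

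Ccl9, a mouse CC chemokine of macrophages and the myeloid lineage that acts on CCR1, read 4767, 3903, 6123, 3381, 4344, 5709, 3375 and 7017 in mice 1 to 8. Mice 1, 3, 6 and 8 were above the other 4 for this gene too. Its range was 2.08-fold (log2 SD 0.40, against a median of 0.23 over the tested named genes). Its neighbour and close relative Ccl6 was highest in mouse 6, at 223, and stayed within 102 to 158 elsewhere.

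The other tested genes showed no common order of the mice. Ccl22, a macrophage and dendritic cell ligand of CCR4, read 268, 209, 314, 308, 314, 201, 139 and 268 in mice 1 to 8, lowest in mouse 7 and otherwise within 201 to 314. Cx3cr1, the fractalkine receptor of patrolling monocytes, read 167, 363.5, 227, 253, 133, 262.5, 229.8 and 295 in mice 1 to 8, highest in mouse 2 and lowest in mouse 5. Its ligand gene Cx3cl1 was highest in mouse 3 (215) and mouse 8 (174), with no more than 117 elsewhere. Xcr1, the receptor of cross-presenting dendritic cells, read 205, 164, 252, 125, 134, 151, 218 and 221, lowest in mouse 4 and highest in mouse 3. Its ligand gene Xcl1, not detected by the rule, spanned 20.4 in mouse 2 to 157.5 in mouse 6. Ccl1, a T cell ligand of CCR8, passed the filter only on a probe set that shares probes with another, with 241, 219.7, 162.5, 110.1, 191, 121, 198 and 131. Its other probe set averaged 28.7 ± 13.5 (SD, n = 8). The level of Ccl1 is uncertain. The log2 SDs of these 4 genes lay between 0.37 and 0.46, and the limma adjusted p for their spread was 0.989 for each.

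**Figure D2:**
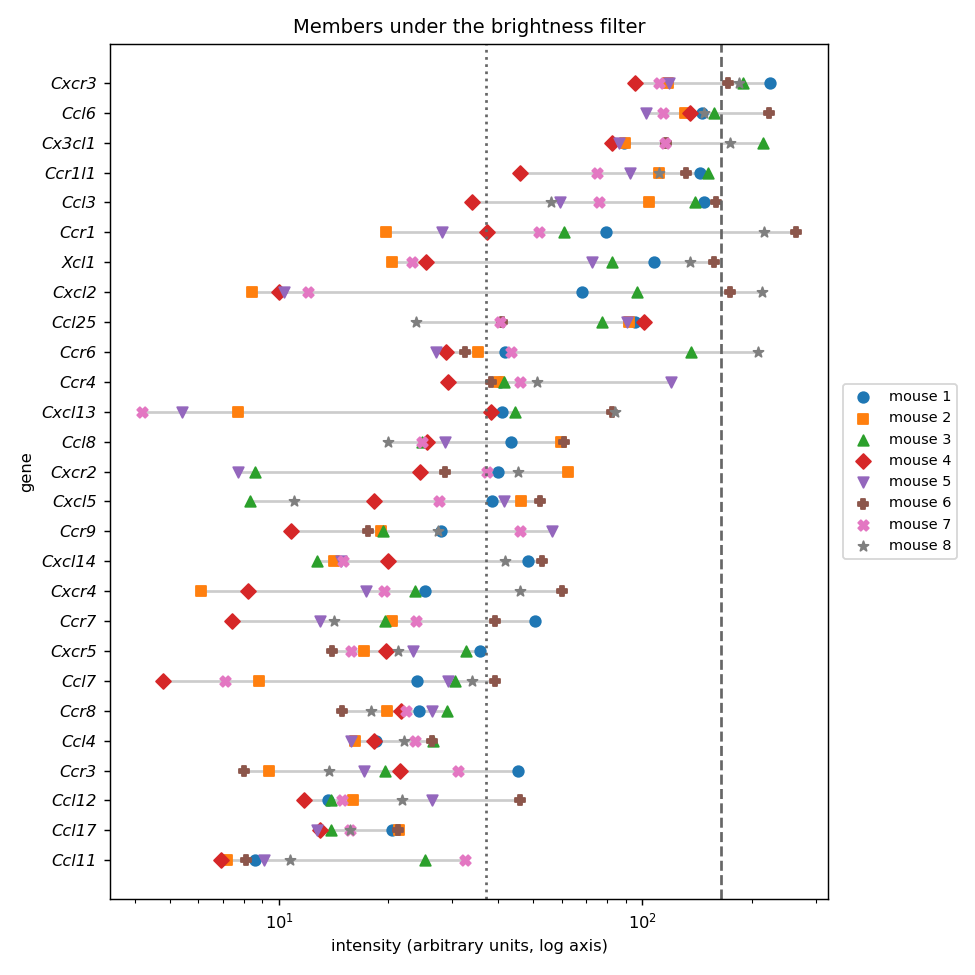
Intensity of the 27 genes under the brightness filter, on a log axis, with 1 symbol per mouse and the genes ordered by mean; the dotted line is the level called near background (37.2) and the dashed line the filter (165.2). Cxcr3, Ccl6, Cx3cl1, Ccr1, Cxcl2 and Ccr6 reach the filter in at least 1 mouse, and the other 21 in none.

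The 21 genes not detected had means from 13.6 to 108, and 15 of those means were under 37.2. Ccl4, Ccl11, Ccl17, Ccr8 and Cxcr5 were under 37.2 in all 8 mice. The homeostatic pair Cxcl13 and Cxcr5, which organises B cell follicles, reached 83.9 and 35.8. The lymphoid receptor Ccr7 reached 50.6, and the gut ligand Ccl25 and its receptor Ccr9 reached 101 and 56.3. By mean, the macrophage ligand Ccl3 (97.1) and the receptor-like Ccr1l1 (108) came nearest to the filter. Their highest values were 159 in mouse 6 and 152 in mouse 3, and Xcl1 reached 157.5 in mouse 6. Ccr6, the receptor of CCL20, exceeded the filter in 1 liver, at 208 in mouse 8, with 136 in mouse 3 and at most 43.5 in the other 6. Ccl7, Ccl8 and Ccl12, which like CCL2 attract monocytes, did not exceed 60.7 in any mouse. The eosinophil receptor Ccr3 reached 45.4 and Cxcl14 52.8, and Ccr4, the receptor of CCL22, reached 120.2 in mouse 5 and no more than 51.2 elsewhere.

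Of the members, 12 lie on chromosome 11, 10 on chromosome 9 and 6 on chromosome 5, many of them side by side, by the gene order of GRCm38.p6. Neighbours differed. Ccl2 adjoins Ccl7, and Ccl11, Ccl12, Ccl8 and Ccl1 follow in that order. Ccl7, Ccl11, Ccl12 and Ccl8 were not detected, and Ccl1 was bright enough to test. Ccl5 adjoins Ccl9, which ranged 2.08-fold. Cxcl9 and Cxcl10, separated by 1 coding gene (Art3), are the neighbours that both ranged widely. Cxcl1 and Cxcl2 adjoin each other, and both were highest in mice 8 and 6.

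How far each gene varied between livers was tested by the ratio of its variance to the variance usual at its brightness. That usual variance is the trend with brightness that limma fitted to all 6265 tested probe sets. At an adjusted p under 0.05, 0 of the 12 genes passed, as did 0% of all tested probe sets. At an unadjusted p under 0.05, 6 of the 12 passed, against 6.38% of all. They were Ccl2, Cxcl9, Ccl5, Ccr2, Cxcl10 and Cxcl1. For Ccl2 the variance was 74.2 times the usual one (limma F test, adjusted p = 0.308). That ratio was 67.9 for Cxcl9 (adjusted p = 0.308), 55.7 for Ccl5 (adjusted p = 0.309) and 25.7 for Ccr2 (adjusted p = 0.397). It was 12.0 for Cxcl10 and 11.3 for Cxcl1 (adjusted p = 0.607 for both). A chi-square test that takes the trend with brightness as exact marked these 6 and Ccl9, 7 of the 12, against 18.3% of all. The log2 SD exceeded 1 in 5 of the 12, against 2.40% of tested named genes. The median log2 SD was 0.57 over the 12 genes and 0.23 over the tested named genes. Ccl2, Ccl5, Ccr2 and Cxcl10 read at most 84.2 in mice 2, 4, 5 and 7 and reached the filter on the mean only through their values in the other 4 mice. Cxcl9, at 184 in mouse 2 and at most 87.0 in mice 4, 5 and 7, also reached it only through those other mice. A dim gene is therefore among the 12 only if it ranged, and genes that follow one another across the same livers are not independent, so these counts and medians describe the list and are no support for a wide range.

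**Figure D3:**
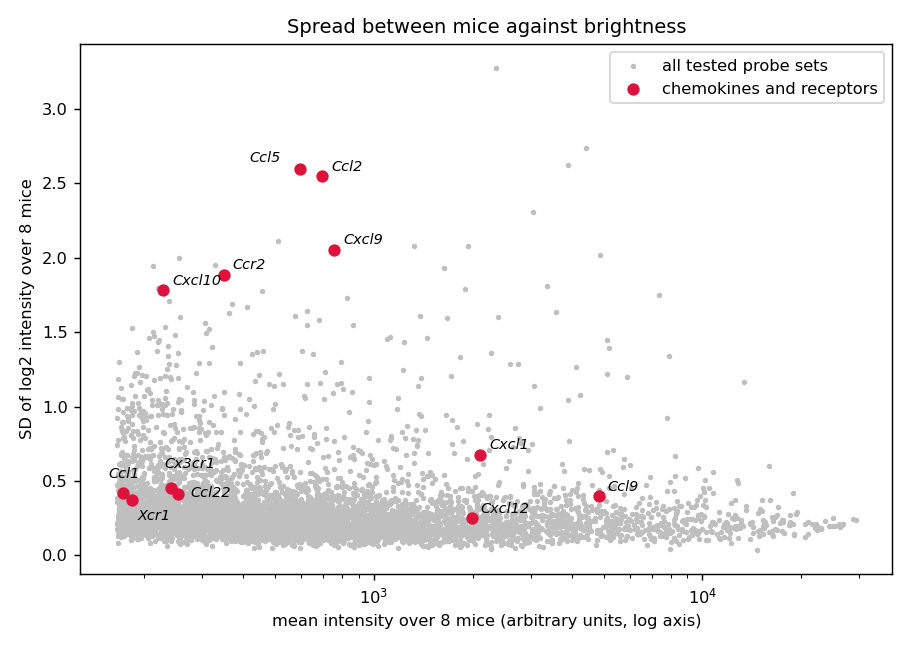
SD of log2 intensity over the 8 mice (vertical axis) against mean intensity (horizontal log axis) for all 6265 tested probe sets in grey and the 12 chemokine and receptor genes in red. Ccl5 and Ccl2, at 2.60 and 2.55, lie near the top of all probe sets, and Cxcl12, at 0.25, lies in the bulk.

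The order of the livers was shared by part of the list. Mice 6 and 8 held the 2 highest values in 6 of the 12 tested genes (Ccl2, Ccl5, Ccr2, Cxcl1, Cxcl9 and Cxcl10), against 12.0% of tested probe sets. Mice 1, 3, 6 and 8 all lay above mice 2, 4, 5 and 7 in 6 of the 12 (Ccl2, Ccl5, Ccl9, Ccr2, Cxcl9 and Cxcl10), against 4.79%. Both orders were read off the values, and Ccl2, Ccl5, Ccr2, Cxcl9 and Cxcl10 entered the 12 only through mice 1, 3, 6 and 8. The counts are therefore descriptions only. Counted per liver, 16 of the 39 genes reached 165.2 in mouse 8, 14 in mouse 6, 13 each in mice 1 and 3, 7 in mouse 2, 6 in mouse 7 and 5 each in mice 4 and 5. Over all probe sets that share was between 47.5% (mouse 5) and 51.2% (mouse 8).

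To see which known pattern each gene followed, every tested probe set was correlated over the 8 mice with 2 single genes: Iigp1, a GTPase induced by interferon gamma, and Mpeg1, a macrophage perforin. The p-values come from an exact two-sided permutation test over all 40320 pairings, adjusted over all tested probe sets. Iigp1 read 3256, 10908, 11521, 1276, 1462, 15220.4, 839 and 14442 in mice 1 to 8, and Mpeg1 read 1394, 2747, 2680, 739, 1002, 6915, 683 and 5726. Both were high in mice 6 and 8 and low in mice 4, 5 and 7, and mouse 2 lay above mouse 1 for both.

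With Iigp1, 0 of the 12 genes passed the adjusted test, against 0.0639% of all probe sets with r above 0 and 0.0160% with r below 0. At an unadjusted p under 0.05, 6 of the 12 passed with r above 0, against 7.11%, and 1, Cxcl12, with r below 0, against 7.68%. Among those with r above 0, Ccl2, Ccl5, Ccr2 and Cxcl9 entered the 12 only through mice in which they were high. Iigp1 was high in some of the same mice, so the count with r above 0 is a description only. By Pearson's r the closest was Cxcl1 (Pearson r = 0.942, exact permutation p = 0.00164, adjusted p = 0.204; Spearman rho = 0.881, exact p = 0.00724). Its r was 0.950 without mice 4 and 7, the 2 farthest from the median of Iigp1. By Spearman's rho Ccl2 came first among those with rho above 0 (rho = 0.905, exact p = 0.00456; r = 0.764, exact p = 0.0352). For Cxcl12 r was -0.760 (exact permutation p = 0.0395, adjusted p = 0.314; rho = -0.905, exact p = 0.00456), and -0.593 without those mice.

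With Mpeg1, 1 of the 12 genes passed, Cxcl1, with r above 0, against 1.95% of all probe sets. Its r was 0.953 (exact permutation p = 0.000843, adjusted p = 0.0394; rho = 0.857, exact p = 0.0107, adjusted p = 0.196), and 0.904 without mice 6 and 8. That call ended with Spearman's rho, with no filter on brightness, with arrays scaled to a common median and on leaving out any 1 of the 8 mice. With r below 0, 0 of the 12 passed, against 0.655% of all probe sets. At an unadjusted p under 0.05, 7 of the 12 passed with r above 0, against 9.53%, and 1, Cxcl12, with r below 0, against 9.95%. Among those with r above 0, Ccl2, Ccl5, Ccr2, Cxcl9 and Cxcl10 entered the 12 only through mice in which they were high. Mice 6 and 8, where Mpeg1 was highest, are among them, so the count with r above 0 is a description only. Cxcl9 had r = 0.932 (exact permutation p = 0.00201, adjusted p = 0.0617; rho = 0.833, exact p = 0.0154) and r = 0.798 without mice 6 and 8. Without those 2 mice r was 0.432 for Cxcl10, against 0.774 with them, 0.510 for Ccl5, against 0.825, and 0.570 for Ccl2, against 0.827. It was 0.672 for Ccr2, against 0.891, and 0.687 for Ccl9, against 0.824.

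Saa3, an acute phase serum amyloid induced by interleukin 1 and TNF, read 7872, 388.5, 6604, 413, 229, 7683, 124 and 12035 in mice 1 to 8. Its values fell into separate clusters, mice 1, 3, 6 and 8 at 6604 or more and the other mice at 413 or less, with a log2 gap of 0.606 of the range, so its relation to the chemokines could not be tested. Saa3 and Iigp1 ran opposite ways in mice 1 and 2, as the values above show. In the same livers Ccl2 read 456 in mouse 1 and 50.9 in mouse 2, Ccl5 387 and 30.0, Cxcl10 216 and 36.0, and Ccr2 182 and 82.1. Cxcl1 and Cx3cr1 were higher in mouse 2 (2137 and 363.5) than in mouse 1 (1736 and 167). With 1 array per mouse these differences between a pair of livers have no replicate check.

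**Figure D4:**
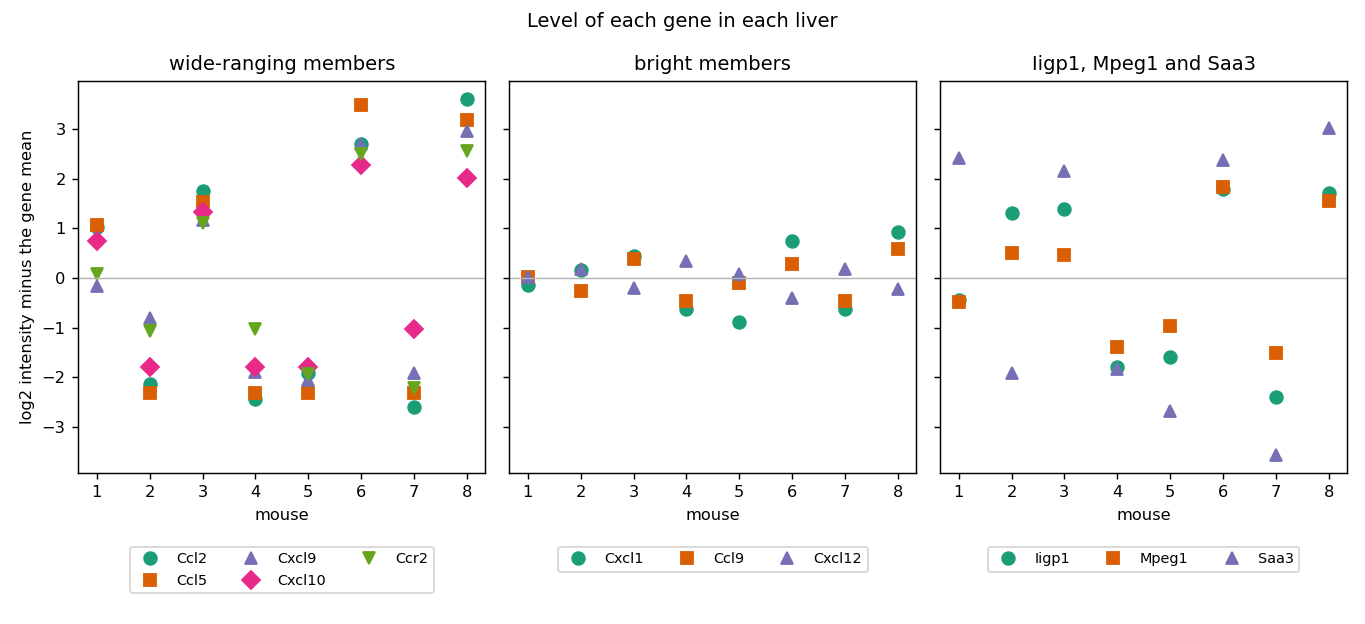
Deviation of log2 intensity from the mean of each gene (vertical axis, values under 37.2 raised to 37.2) for each mouse (horizontal axis), for 5 wide-ranging genes, 3 bright genes, and Iigp1, Mpeg1 and Saa3. The wide-ranging genes lie below their means in mouse 2, where Iigp1 and Mpeg1 lie above their means and Saa3 below its own.

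Most markers of macrophages and monocytes were highest in the same livers. The summed intensity of the 12 macrophage markers measured (of 14 listed) came to 31215 in mouse 6 and 20216 in mouse 8, and to no more than 10797 elsewhere. Of the 10 tested markers, 9 had their 2 highest values in mice 6 and 8, against 12.0% of all tested probe sets. Adgre1, at 29.3 to 182 elsewhere, passed the filter only through mice 6 and 8. The tested marker that differed, Clec4f, was highest in mouse 2 (1362) and read 1221 in mouse 6 and 747 in mouse 8, a 2.60-fold range. The 7 monocyte and dendritic cell markers measured (of 10, with Ccr2 itself among them) summed to 9827 in mouse 6 and 6920 in mouse 8, and elsewhere to 1887 to 3563. Of its 6 tested markers 4 had their 2 highest values in mice 6 and 8, against the same 12.0%. Ccr2, 1 of the 4, reached the filter only through mice in which it was high, as given above. The order was read off the values, so the counts for both lists are descriptions only. Plac8, a monocyte gene, made up most of that sum in mice 6 and 8, with 6011 and 3690.5, against 444 in mouse 4. Flt3, a receptor of dendritic cell precursors, ranged 1.26-fold and was highest in mouse 3, as was the dim Chil3. For neutrophils, 10 of 11 markers summed to 3048 in mouse 6 and 1409.7 to 1854 in the others, mouse 8 included (1675), with Ngp and Cxcr2 near background. Csf3r (1596), S100a8 (556), S100a9 (222) and Ngp were highest in mouse 6. The other markers of the list were highest elsewhere, Ltf in mouse 5, Elane in mouse 3, Mpo in mouse 7, Ly6g in mouse 8, and Camp and Cxcr2 in mouse 2.

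The 15 T and NK cell markers measured (of 19) summed to 1979 in mouse 6 and 1574 in mouse 8, and elsewhere to 562 to 1032, of which Ptprc, expressed by all leukocytes, gave 668 and 539 in mice 6 and 8 and no more than 144 elsewhere. The other tested marker, Cd4, was highest in mouse 3 (345), and 7 of the 15, Cd3d, Cd3g, Cd8a, Cd8b1, Cd2, Cd5 and Prf1, averaged under 37.2. The sum of endothelial markers (9 of 11) was lowest in mouse 8 (2134) and highest in mouse 4 (4194), and Kdr, a receptor of endothelium, read 139 and 512 there. Tek, Vwf, Flt1, Tie1 and Eng were also lowest in mouse 8, but Cdh5 and Pecam1 were lowest in mouse 3 and Lyve1 in mouse 1. The highest values of these markers lay in several mice, that of Eng in mouse 3 and that of Cdh5 in mouse 6. The sum of the hepatocyte markers (8 of 10) ranged 1.37-fold, that of B and plasma cell markers (9 of 11) 1.36-fold, that of stellate and matrix genes (11 of 12) 1.29-fold and that of cholangiocyte markers (5 of 7) 1.55-fold, the last with Krt19, Krt7 and Epcam near background. The brightest genes set such sums, and single markers ranged further. Hnf4a ranged 4.92-fold, lowest in mouse 5, and Apob 3.95-fold, while the collagen genes Col3a1 and Col1a1 ranged 4.23-fold and 3.08-fold, both highest in mouse 6. In whole liver, more cells of a type and more RNA per cell cannot be told apart, and the part of these cells in the chemokine levels was not tested.

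**Figure D5:**
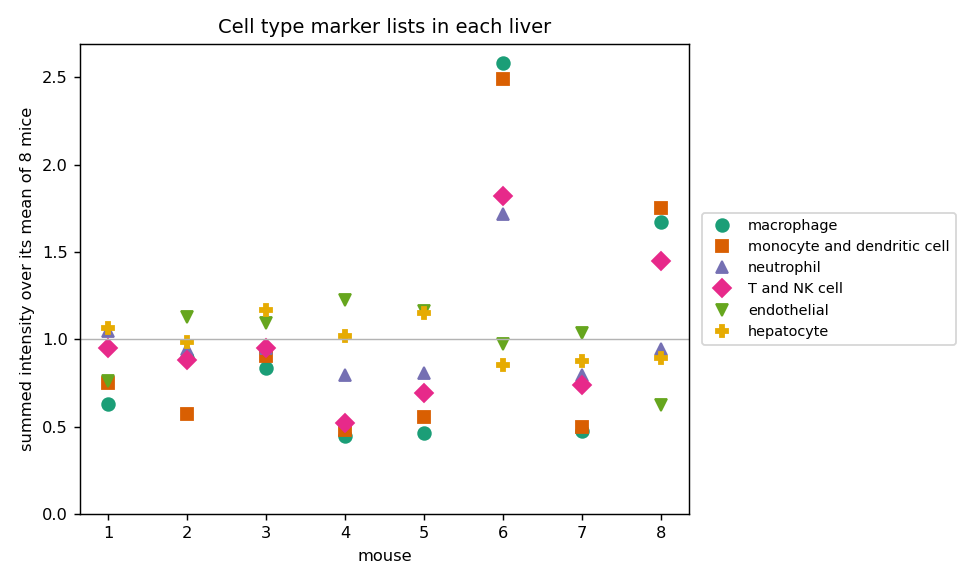
Summed intensity of each cell type marker list in each mouse (horizontal axis), divided by the mean of the 8 mice (vertical axis, from 0). The macrophage and monocyte lists are high in mice 6 and 8, as is the T and NK cell list, to which Ptprc adds 668 and 539 there. The sum of the neutrophil list is high in mouse 6 alone, where Csf3r, S100a8 and S100a9 are highest. The sum of the hepatocyte list stays within 1.37-fold.

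Among genes upstream of chemokines, 20 of 25 listed inducers and transcription factors were measured and 15 tested. None passed the limma F test at an adjusted p under 0.05 (0 of 15), 3 had an unadjusted p under 0.05 (Irf7, Irf1 and Irf8), against 6.38% of all tested probe sets. The chi-square test marked 8, against 18.3%, and 11 had their 2 highest values in mice 6 and 8, against 12.0%. That order was read off the values, and Ifngr2, at 68.6 to 189 elsewhere, passed the filter only through mice 6 and 8. The count of 11 is therefore a description only. Irf1, the interferon gamma induced factor that acts on the promoters of Cxcl9 and Cxcl10, reached 3402 in mouse 6 and 1635 in mouse 8, with 591 to 1224 elsewhere. Irf7, a factor of the type I interferon response, read 1628 in mouse 6 and 221 in mouse 7. Ifng itself was near background in 7 mice and read 53.6 in mouse 6, and Il6 averaged under 37.2. Of the inflammatory cytokines upstream of CCL2 and CXCL1, Il1b was highest in mouse 6 (604), followed by mouse 8 (237) and mouse 3 (101), with no more than 49.9 elsewhere. Tnf reached 235 in mouse 6 and no more than 85.7 elsewhere. In mouse 1, where Ccl2 and Ccl5 were high, Il1b read 17.4 and Tnf 37.7.

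Downstream of the receptors, 22 of 32 listed signalling genes were measured and 13 tested, of which 0 passed at an adjusted p under 0.05, 2 had an unadjusted p under 0.05 (against 6.38% of all tested probe sets) and the chi-square test marked 4 (against 18.3%). Their median log2 SD was 0.25, against 0.23 over the tested named genes. Gnai2, the inhibitory G protein subunit that chemokine receptors use most in leukocytes, read 5975 in mouse 6 and 4439 in mouse 1, a 1.35-fold range. Rac2, the leukocyte GTPase of directed movement, was lowest in mouse 4 (505) and highest in mouse 6 (1317), a 2.61-fold range. Rgs16, a brake on G protein signalling that hepatocytes express, was lowest in mouse 6 (2052) and highest in mouse 5 (7054), with mouse 1 next (6355.5).

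Atypical receptors, most of which bind and clear chemokines without G protein signalling, were dim. Of 10 listed symbols 6 were measured and 0 had a mean that reached the filter, with Ackr3 and Cmklr1 near background on average. Ccrl2 read 78.0 to 173 and Ackr4 27.7 to 155. Of a list of other chemokines and genes of chemokine processing, 8 of 9 were measured and 5 tested (Mmp12, Sdc4, Sdc1, Rarres2 and Dpp4). Of the 5, 0 were past an adjusted p under 0.05, 1 was at an unadjusted p (against 6.38% of all tested probe sets) and 2 were marked by the chi-square test (against 18.3%). Mmp12, a macrophage protease, reached 643 in mouse 6 and 644 in mouse 8, with 75.0 to 158 elsewhere. Mmp12 was the gene with an unadjusted p under 0.05, and it passed the filter only through mice 6 and 8. That count is therefore a description only. Dpp4, a peptidase that shortens CXCL9, CXCL10 and CXCL12, was lowest in mouse 8 (202) and highest in mouse 2 (309), a 1.53-fold range.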

How the data were processed

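Liver RNA of 8 mice was measured on 1 Affymetrix U74Av2 array each, scanned on a Hewlett-Packard GeneArray scanner, per the labels. The authors deposited a linear intensity for each probe set on each array, and how probes were summarised is not given in the sources. The trimmed mean, with 2% of probe sets cut at either end, was 500.4 on all 8 arrays, so intensities were taken as scaled. There are no counts, and the number of arrays limits the precision. All 8 columns matched a sample.

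Control probe sets (66 of 12488) were left out. Values were raised to 37.2 (the 25th percentile) and converted to log2, and the 6265 probe sets (4869 named genes) with a mean of at least 165.2 were tested. Of the probe sets, 10833 had 1 symbol, 396 several and 1193 none; all 39 symbols matched a RefSeq gene list by Entrez identifier. The spread test is a one-sided F test on limma's squeezeVar (trend on brightness, robust, prior degrees of freedom 3.80, those of the bulk of probe sets) with Benjamini-Hochberg adjustment at 0.05. Relations used Pearson's r with exact permutation. An anchor whose largest gap exceeded 0.5 of its range was not tested. The p-values measure the spread between these 8 mice only. Both tests were tried on simulated data. Tools were R 4.3.3, limma 3.58.1, Python 3.11.15 and numpy 2.4.6.

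Members, marker and pathway lists, anchors and motifs were chosen with earlier results of these data known. The naming rule gives values in all mice for tested members, ranges for those with a mouse at or above the median and the names of the rest, and for each other list at most the 4 widest; further genes of those lists (Dpp4, Gnai2, Flt3, Cd4, Hnf4a, Rac2, Rgs16, Kdr, Ifng and others) were chosen after their values were seen. Labels do not say whether livers were processed in batches.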

Additional observations from a re-analysis of the deposited data

Results flagged for a closer look

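The ratio of the 3′ to the 5′ Gapdh control probe sets was 2.67 in mouse 5, against 0.794 to 1.07 in the other 7 mice. Its gap to the nearest mouse was 0.756 of the whole range, above Dixon's critical value for 8 samples, a mark that 1 group in 20 passes by chance. Of the 12 tested genes, 0 had a mouse that far from the others. The ratio forms separate clusters, so its relation to the chemokines could not be tested, and its part in the low values of mouse 5 (Cxcl10 at 15.6, Cxcl9 at 78.2, Cxcl1 at 1039) was not tested.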

How the results depend on the processing

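The count of 12 genes bright enough became 39 with no filter and 7 with a filter at the 60th percentile, both by construction, and was 11 or 12 under the other alternatives, leaving out each mouse included. The count of 0 past the F test was 0 under every other floor, scaling, filter and probe set rule tried and without each mouse; it was 6 at an unadjusted p and 7 by the chi-square test. With Iigp1 the count was 0 under every alternative except an unadjusted p, which gave 7. With Mpeg1 the count of 1 became 0 with no filter, 0 with each array centred on 1 shared median, 0 with Spearman's rho and 8 at an unadjusted p, and was 0 to 2 on leaving out 1 mouse (Ccl5 and Cxcl12 without mouse 2, 0 without each of the others); with 7 mice fewer pairings exist, and the cause was otherwise not tested. Scaling to a common median moved mouse 5 most, whose median lay 0.20 below the middle of the arrays on the log2 scale (log2 shift -0.20). Of 183 recomputed log2 SDs, 181 stayed within the sampling error of an SD; that of Ccl22 was 0.27 without mouse 7 and that of Cxcl10 1.16 with a floor at the 40th percentile. Relations with Saa3 and the Gapdh ratio were not run, since both form clusters. No paired analysis was possible because there is 1 group.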

Other observations

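Of 15 listed adhesion molecules that leukocytes use beside chemokines, 14 were measured and 8 tested. Of the 8, 6 had their 2 highest values in mice 6 and 8, against 12.0% of all tested probe sets. That order was read off the values. Itgb2, Vcam1 and Itgal (79.5 to 158 elsewhere) reached the filter on the mean only through mice 6 and 8. The counts for this list are therefore descriptions only. The limma F test called 0 of the 8 at an adjusted p under 0.05 and 3 at an unadjusted one (against 6.38%), and the chi-square test marked 6 (against 18.3%). Itgb2, the common beta chain of the leukocyte integrins, reached 1017 in mouse 6 and 513 in mouse 8, with 26.4 to 163 elsewhere. Icam1, its ligand on endothelium and hepatocytes, read 369, 163, 489.5, 138, 105, 1028, 116 and 980.3 in mice 1 to 8, with the 4 highest in mice 1, 3, 6 and 8. Vcam1, the ligand of the integrin alpha 4 chain, reached 437 in mouse 6 and 477 in mouse 8, with 89.7 to 186 elsewhere. The selectins Sele and Selp averaged under 37.2.

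A probe set annotated to several Ccl21 genes, ligands of CCR7, is outside the list because it names more than 1 gene. It averaged 142 ± 22.4 (SD, n = 8), with 177 in mouse 3 at the top and 106 in mouse 8 at the bottom.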
